A study of Saccharomyces cerevisiae with 3 samples.

Results

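Haploid yeast cells mate by exchanging peptide pheromones, and 10 genes of that programme were followed here, out of 6212 identifiers on the arrays. They were picked by name from the set of mating genes after earlier results of the same arrays were known, so the measured ratios of mutant over wild type were among the values they were chosen by. All of their ratios are therefore given as a description, with no test. Of the 10 genes, 5 are a-specific, meaning that they are transcribed in a cells and not in α cells: MFA1, MFA2, STE2, BAR1 and AGA2. The other 5 are general haploid genes, transcribed in both mating types and off in a/α diploids: AGA1, STE5, STE12, FAR1 and FUS1.

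An a cell secretes a-factor and displays the receptor Ste2, which binds the α-factor of its partner. The receptor releases a G protein, which recruits the scaffold Ste5 with its kinase cascade, and the kinases free the transcription factor Ste12 to switch on its target genes. Those targets include genes for growth arrest (FAR1), for fusion (FUS1) and for agglutinins, the cell wall proteins through which partners stick together. Many of the genes have a basal level without a partner that also depends on Ste12. In diploids the a1-α2 repressor keeps the general haploid genes off.

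The arrays compared 2 strains of the JA100 background on 3 spotted arrays of 2 colours. The wild type was set against tetO:HAL3 vhs3::URA3, in which VHS3 is replaced by the URA3 marker and HAL3 stands behind a promoter that doxycycline turns off. Hal3 and Vhs3 are inhibitors of the phosphatase Ppz1 and subunits of an enzyme of coenzyme A synthesis. Both cultures grew at 28 °C in synthetic complete medium, with doxycycline at 100 µg/ml over 15 h, so the drug is common to both sides of every ratio. No pheromone treatment is mentioned in the labels, and they do not give the mating type of JA100. Replicate 1 was hybridised with the mutant in Cy5 and again with the mutant in Cy3, called here the Cy5 array and the Cy3 array, and these were averaged into 1 value. Replicate 2 has 1 array, with the mutant in Cy5.

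All values below are log2 ratios with the median of each array set to 0. They are read as mutant over wild type, a likely direction that rests on the dyes named in the labels and on HAL3 and VHS3 in replicate 1. HAL3 (SIS2 in RefSeq) had ratios of −1.33 on the Cy5 array, −1.29 on the Cy3 array and −0.14 in replicate 2. VHS3 had ratios of −2.06, −2.50 and 0.09 in that order. URA3, the marker that the mutant carries, had −1.40, −0.82 and −0.33, below 0 on all 3 arrays and so opposite to a gained marker in this direction. The labels do not say whether the wild type has a URA3 gene. The deleted gene thus went against its label in replicate 2, and each value from that array is the value of the library labelled replicate 2. Over genes, the SD was 0.650 on the Cy5 array, 0.699 on the Cy3 array and 0.353 in replicate 2. Across genes, which are not independent replicates, r was 0.508 within the dye-swap pair and 0.159 between the replicates. The arrays gave between 4728 and 4894 ratios each, and precision is limited throughout by how few arrays there are.

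AGA1 was the mating gene with the lowest mean, more than 2-fold lower in both replicates, and FUS1 and STE5 came next among those with the same sign on all 3 arrays. BAR1 was lower in replicate 1 and higher in replicate 2. MFA2, a gene for a-factor, and STE2, the gene for the α-factor receptor, stayed closer to 0. MFA1 had no ratio on any array, STE12 had one only in replicate 2, and FAR1 lacked one on the Cy5 array. That left 9 genes with a ratio on at least 1 array, 8 with a ratio in both replicates and 7 measured on all 3 arrays. What a blank means is not stated in the sources used here.

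**Figure D1:**
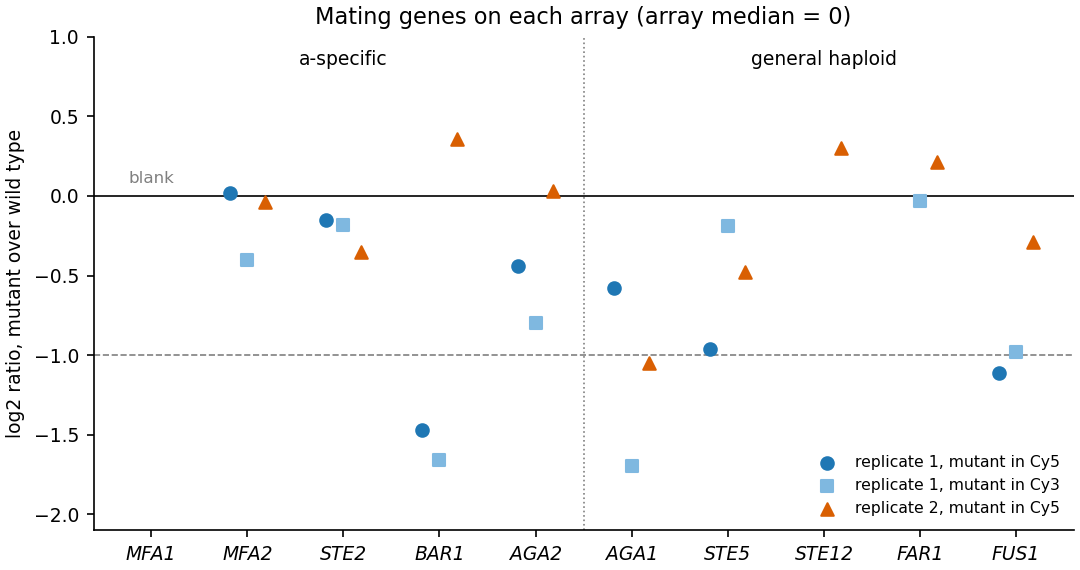
Log2 ratio of mutant over wild type (y axis, array median at 0) of each mating gene (x axis) on the Cy5 array of replicate 1 (circles), its Cy3 array (squares) and the array of replicate 2 (triangles). The dashed line marks 2-fold lower; AGA1 is below it on 2 arrays and at −0.58 on the Cy5 array, and BAR1 is at −1.47 and −1.66 in replicate 1 and above 0 in replicate 2.

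The pheromone genes come first in the pathway. MFA1 (YDR461W) and MFA2 (YNL145W) both encode precursors of a-factor, the farnesylated peptide that a cells export. MFA2 had log2 ratios of 0.02 on the Cy5 array, −0.40 on the Cy3 array and −0.04 in replicate 2. These values lie on both sides of 0, and the mean was −0.11 ± 0.11 (SD, n = 2). Of all genes, 32.5% had a lower mean than MFA2. As the coding sequences of MFA1 and MFA2 are much alike, a spotted probe of MFA2 may also bind MFA1 transcripts.

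STE2 (YFL026W), the α-factor receptor, was a little below 0 on every array, with log2 ratios of −0.15, −0.18 and −0.35 on the Cy5 array, the Cy3 array and in replicate 2. The dyes agreed more closely for STE2 than for most genes: the gap within the dye-swap pair was 0.03, and 3.43% of genes had a smaller one. Its mean of −0.26 ± 0.13 (SD, n = 2) corresponds to a ratio 1.12-fold lower in replicate 1 and 1.28-fold lower in replicate 2. The median gap within the pair over 4546 genes was 0.47, which is larger than any of the 3 ratios of STE2.

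BAR1 (YIL015W) encodes the secreted protease that degrades α-factor outside the a cell. Its log2 ratios were −1.47 on the Cy5 array and −1.66 on the Cy3 array, against 0.36 in replicate 2. The first pair was low, with 2.02% and 1.29% of measured genes lower still, whereas in replicate 2 94.9% of genes were lower. BAR1 was thus 2.96-fold lower in replicate 1 and 1.29-fold higher in replicate 2, a mean of −0.60 ± 1.36 (SD, n = 2). Its gap between replicates, 1.93, exceeded that of 98.7% of the 4598 genes measured in both. BAR1 lies on chromosome IX, where the median of all genes was −0.80 on the Cy5 array, −0.62 on the Cy3 array and −0.05 in replicate 2. Relative to those medians BAR1 was at −0.67, −1.04 and 0.41.

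The signalling genes follow. STE5 (YDR103W), the scaffold that holds the kinase cascade, had log2 ratios of −0.96 on the Cy5 array, −0.19 on the Cy3 array and −0.48 in replicate 2. All 3 are below 0, but the dyes of replicate 1 differed by 0.78, a gap larger than that of 76.1% of genes. Averaged over the pair, STE5 was below wild type by 1.49-fold in replicate 1 and by 1.39-fold in replicate 2, a mean of −0.53 ± 0.07 (SD, n = 2). The small SD thus rests on the average of 2 unlike values. STE12 (YHR084W), the transcription factor at the end of the cascade, had only the ratio of replicate 2, 0.30, higher than that of 91.1% of genes on that array. FAR1 (YJL157C), which inhibits the G1 cyclin kinase and guides polarised growth toward the partner, had ratios of −0.03 on the Cy3 array and 0.21 in replicate 2. FAR1 was the mating gene with the highest mean, 0.09 ± 0.17 (SD, n = 2), and 63.0% of genes had a lower one.

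The adhesion and fusion genes include AGA1, the mating gene with the lowest ratio in replicate 2 and the second lowest in replicate 1, after BAR1. AGA1 (YNR044W) encodes the anchor subunit of a-agglutinin, which attaches the binding subunit Aga2 to the cell wall through disulfide bonds. Its log2 ratios were −0.58 on the Cy5 array, −1.70 on the Cy3 array and −1.05 in replicate 2. All arrays put it below 0, at places where 14.8%, 1.12% and 2.12% of measured genes were lower. The level of AGA1 was 2.21-fold below wild type in replicate 1 and 2.07-fold below it in replicate 2, a mean of −1.09 ± 0.07 (SD, n = 2), and 0.652% of genes had a lower mean. As with STE5, the SD between replicates is smaller than the gap within the dye-swap pair, which was 1.12 and exceeded that of 91.4% of genes.

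AGA2 (YGL032C), the subunit of a-agglutinin that binds the partner cell, was below 0 in replicate 1 and close to 0 in replicate 2. Its log2 ratios were −0.44 on the Cy5 array, −0.80 on the Cy3 array and 0.03 in replicate 2, a mean of −0.29 ± 0.46 (SD, n = 2). Unlike AGA1, which is transcribed in both mating types, AGA2 is a-specific. AGA1 was the lower of the pair on all 3 arrays.

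FUS1 (YCL027W) encodes a membrane protein of the shmoo tip required for cell fusion, and its promoter is a classic reporter of Ste12 activity. Its log2 ratios were −1.11 on the Cy5 array, −0.98 on the Cy3 array and −0.29 in replicate 2. FUS1 was low with either dye, the gap of 0.13 being larger than that of only 15.3% of genes. It was below wild type by 2.06-fold in replicate 1 and by 1.22-fold in replicate 2, a mean of −0.67 ± 0.53 (SD, n = 2). Of all genes, 3.96% had a lower mean than FUS1.

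Counted together, the mating genes leaned below 0 in replicate 1 and were spread around 0 in replicate 2. Below 0 were 6 of 7 on the Cy5 array, 8 of 8 on the Cy3 array and 5 of 9 in replicate 2, beside 50.0%, 49.9% and 49.9% of all genes. In both replicates 5 of 8 were below 0, namely AGA1, STE5, FUS1, STE2 and MFA2, beside 24.6% of all genes, and none was above 0 in both, beside 26.6%. On all 3 arrays 4 of 7 were below 0, beside 15.9%. In replicate 1 BAR1, AGA1 and FUS1 were at least 2-fold lower, 3 of 8, beside 4.20%. In replicate 2 AGA1 alone was, 1 of 9, beside 2.39%. The median of the members was −0.60 in replicate 1 and −0.04 in replicate 2, beside medians of 0.02 and 0.00 over all genes. Since the genes were chosen with these ratios known, nothing is read from these shares.

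**Figure D2:**
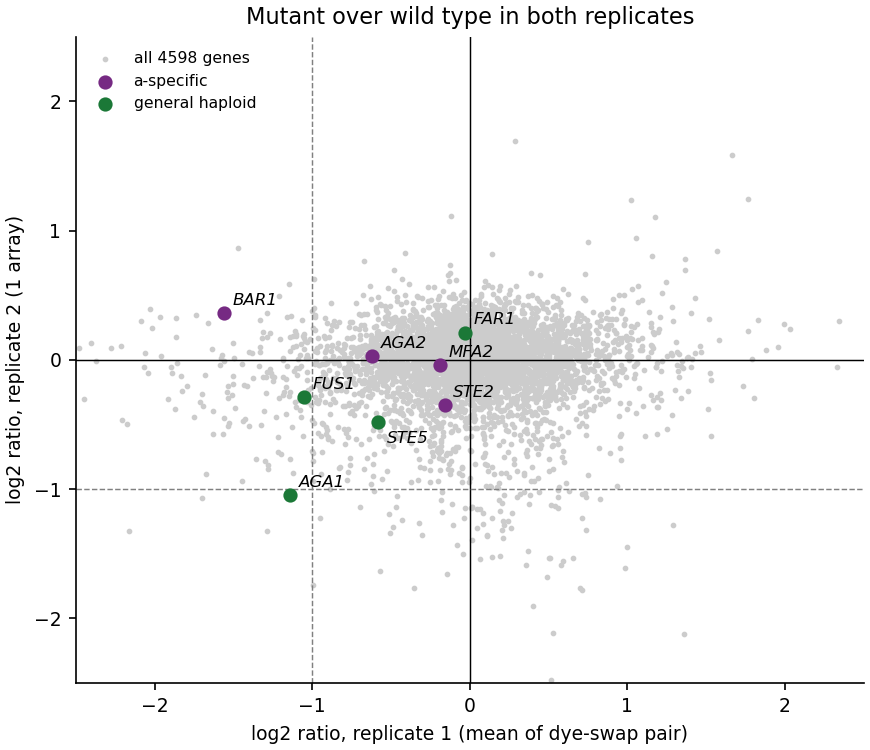
Log2 ratio of mutant over wild type in replicate 1 (x axis, mean of the dye-swap pair) and in replicate 2 (y axis, 1 array) for all genes measured in both (grey) and the 8 mating genes among them, with dashed lines at 2-fold lower. AGA1 is the only mating gene past both dashed lines; 24 genes lie outside the axes.

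AGA1 was thus the 1 mating gene of 8 at least 2-fold lower in both replicates, beside 0.130% of all genes (6 of 4598). With a limit of 1.5-fold it was still the only one, beside 1.09%. Its place past 2-fold in both replicates was narrow: the count was 0 of 8 with each chromosome centred on its own median or the arrays scaled to one spread. It was 0 of 7 when the Cy5 array alone stood for replicate 1 or all 3 arrays had to pass. The mean of AGA1 was −1.07 centred per chromosome, −1.45 after scaling, −1.11 over 3 arrays and −0.82 with the Cy5 array alone, against −1.09. In limma, 0 of 4598 genes (0%) had an adjusted p under 0.05, with 222 at an unadjusted p under 0.05 and a smallest adjusted p of 0.258, so no mating gene was called.

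The a-specific genes had higher ratios than the general haploid genes by their medians on 2 of the 3 arrays, with ranges that overlapped on all 3. On the Cy5 array the a-specific median was −0.29 (4 genes, from −1.47 to 0.02) and the general haploid median −0.96 (3 genes, from −1.11 to −0.58), a difference of 0.67. On the Cy3 array the medians were −0.60 (4 genes, from −1.66 to −0.18) and −0.58 (4 genes, from −1.70 to −0.03), a difference of −0.02. In replicate 2 the a-specific genes ran from −0.35 to 0.36, with 2 of 4 below 0. The general haploid genes ran there from −1.05 to 0.30 with a median of −0.29, 3 of 5 being below 0, and the difference was 0.29.

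The set of genes differs between arrays because of blanks, and that alone turned the sign on the Cy3 array. Over the 7 genes measured on every array, 4 a-specific and 3 general haploid, the difference of medians was 0.67 on the Cy5 array, 0.38 on the Cy3 array and 0.48 in replicate 2. FAR1, near 0 on the Cy3 array, is the gene that makes the difference there. Over the 8 genes with a mean the a-specific median was −0.27 and the general haploid median −0.60, a difference of 0.32. It was 0.16 when the Cy3 array alone stood for replicate 1. Within each class the genes were far apart: BAR1 was low where STE2 and MFA2 were near 0 in replicate 1, and AGA1 was low where FAR1 and STE12 were above 0 in replicate 2. So the division into a-specific and general haploid genes did not separate high from low ratios on any array. On the Cy5 array this rested on BAR1 alone, on chromosome IX, whose median there was −0.80. The other a-specific genes measured there ran from −0.44 to 0.02, all above the general haploid genes. Without BAR1 the difference of medians was 0.82 there, 0.18 on the Cy3 array and 0.25 in replicate 2. On these last 2 arrays the classes still overlapped.

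**Figure D3:**
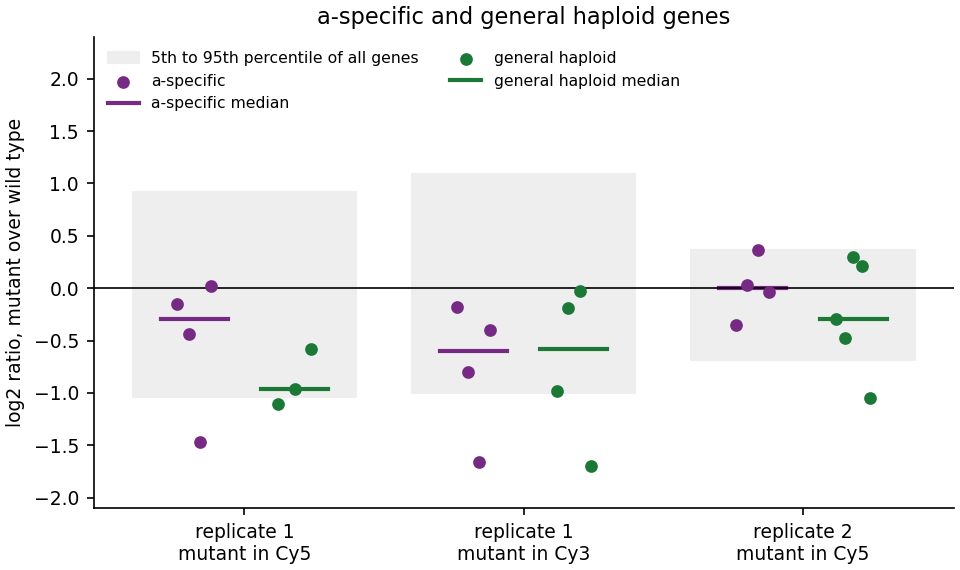
Log2 ratio of mutant over wild type (y axis) of a-specific (purple) and general haploid (green) genes on each array (x axis); points are genes, lines their medians and grey boxes the 5th to 95th percentile of all genes on that array. The 2 classes overlap on every array, and the medians are −0.29 and −0.96, −0.60 and −0.58, and near 0 and −0.29 from left to right.

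Because the genes of chromosome IX had a low median in replicate 1, each mating gene was also set beside its nearest measured neighbours in the order of the systematic names, 3 reading frames on each side, a comparison chosen after the values were seen. AGA1, on chromosome XIV, was below all 6 neighbours in both replicates: the neighbours had medians of −0.03 and −0.02 and lowest values of −0.24 and −0.14. STE5, on chromosome IV, was likewise below all 6, whose lowest values were −0.16 in replicate 1 and 0.00 in replicate 2. AGA1 and STE5 were chosen with their ratios known, and only 0.652% and 6.39% of all genes had lower means. How many of all genes lie below their own neighbours was not counted, so their places add nothing to those ratios. BAR1 was below all 6 neighbours in replicate 1, where they ran from −1.03 to −0.48, and above all 6 in replicate 2, where they ran from −0.31 to 0.26. FUS1, on chromosome III, was within the range of its neighbours in both replicates, from −1.18 to 0.36 and from −0.70 to 0.29. Relative to their median it was at −0.83 and −0.40. AGA2 and MFA2 were within the range of their neighbours in both replicates as well. STE2 was within it in replicate 1 and below all 6 in replicate 2, and FAR1 was within it in replicate 1 and above all 6 in replicate 2.

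**Figure D4:**
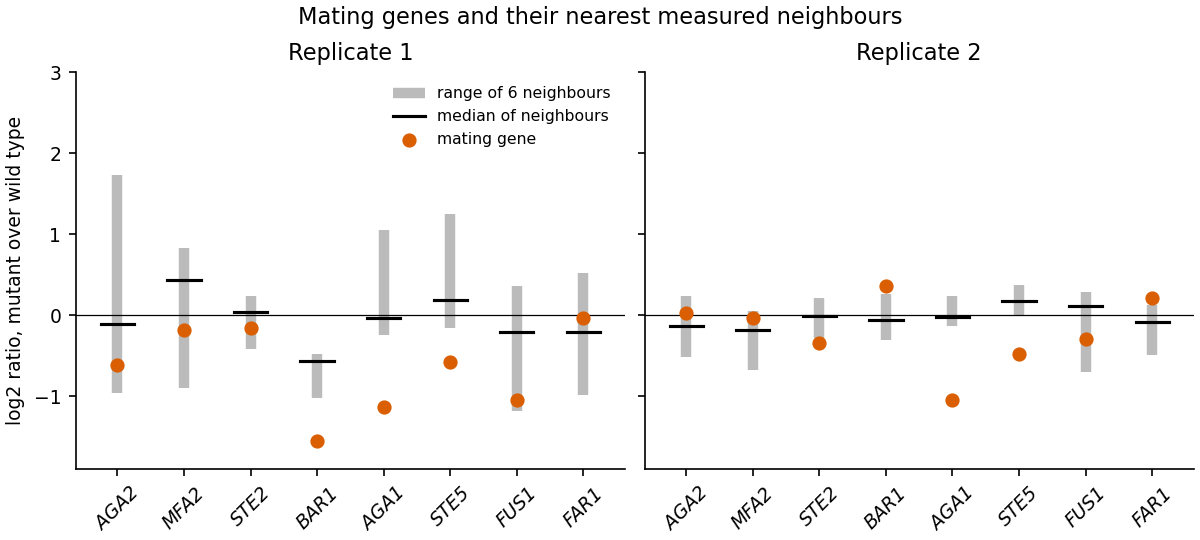
Log2 ratio of mutant over wild type (y axis) of the 8 mating genes measured in both replicates (orange) beside the range (grey bar) and median (black line) of their 6 nearest measured neighbours by systematic name, for replicate 1 (left) and replicate 2 (right). AGA1 and STE5 lie below all of their neighbours in both panels, and BAR1 in the left panel only.

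The other genes of the mating programme, taken from textbook lists, gave a mixed picture. No list member was at least 2-fold different in both replicates, beside 19 of 4598 over all genes. With a share that small, lists of this size would mostly hold none, so nothing is read from it. Both remaining a-specific genes, like AGA2, were below 0 in replicate 1 and just above it in replicate 2. STE6, the exporter of a-factor, had log2 ratios of −0.90, 0.01 and 0.03 on the Cy5 array, the Cy3 array and in replicate 2. ASG7, an a-specific regulator of the pathway in newly mated cells, had −0.26, −0.98 and 0.10. Each was thus far below 0 with 1 dye only.

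Genes that mark α cells showed no common direction where they had a ratio, and as the arrays give ratios and no levels, whether they were transcribed at all is unknown. SAG1, the α-agglutinin that Aga2 binds, had log2 ratios of 0.35, −0.14 and −0.15. MF(ALPHA)2, a gene for α-factor, had 0.18 and 0.59 in replicate 1 and a blank in replicate 2. MF(ALPHA)1 had −0.20 in replicate 2 alone. STE3, the a-factor receptor, was blank on all 3 arrays.

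Of the signalling genes around STE5, 16 of 18 were measured in both replicates, and their medians were −0.08 in replicate 1 and 0.02 in replicate 2. Of these 16, 4 were below 0 in both and 3 above, beside 24.6% and 26.6% of all genes. STE20, the kinase that starts the cascade, had ratios of −0.24, −0.20 and −0.26, close to each other on all 3 arrays. STE4, the β subunit of the G protein, had −0.03, −0.27 and −0.05. MSG5, a phosphatase that acts on the mating kinase Fus3, had −0.05, −0.32 and −0.10. The ratios of FUS3 itself were 0.05, −0.04 and −0.30, and those of STE11 and STE7, the kinases above it, were −0.02, −0.23 and 0.17, and −0.16, 0.39 and 0.07. FUS3, STE11 and STE7 were picked out for their place on the scaffold, after their values were seen. Of the 16 signalling genes none had a mean as low as that of STE5, beside 6.39% of all genes with a lower one. With a share that small, 16 genes may well hold none. STE5 was also chosen with its ratio known, so nothing is read from this.

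The genes that pheromone induces for fusion and adhesion, the group to which AGA1, FUS1 and FAR1 are closest, had 12 of 15 members measured in both replicates. Their medians were 0.01 and −0.05, with 5 below 0 in both replicates and 4 above, beside 24.6% and 26.6% of all genes. AFR1, which is needed to shape the mating projection, had log2 ratios of −1.99, −1.08 and −0.30. Its pattern was low with either dye in replicate 1 and nearer to 0 in replicate 2, as for FUS1. Over all genes the SD was also smaller in replicate 2, 0.353 against 0.650 and 0.699, so nothing is read from this likeness. FIG2, a cell wall adhesin of mating cells, had −0.17, −1.23 and −0.34, lower on the Cy3 than on the Cy5 array as AGA1 was. PRM2, a pheromone-regulated membrane protein, had −0.98, −0.38 and −0.24, but lies on chromosome IX, whose median was −0.71 in replicate 1. PCL2, a cyclin of the kinase Pho85, was above 0 throughout, at 0.40, 0.43 and 0.35. FIG1, a membrane protein for calcium influx in mating that was picked out after its values were seen, had 0.72, −0.69 and −1.39, so the dyes of replicate 1 gave opposite signs.

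**Figure D5:**
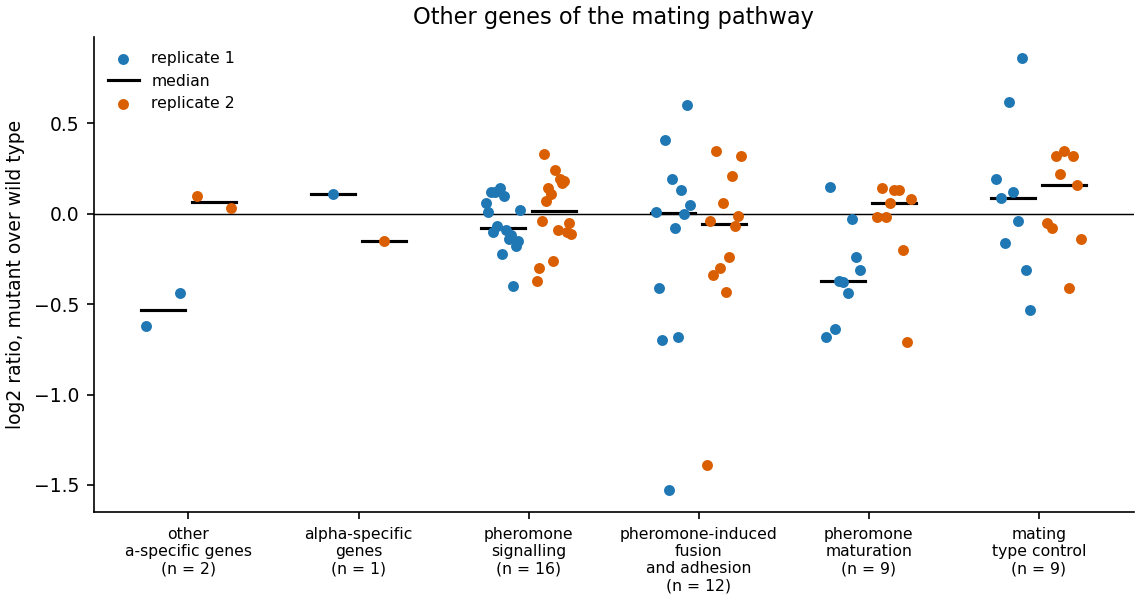
Log2 ratio of mutant over wild type (y axis) in replicate 1 (blue) and replicate 2 (orange) of genes from 6 further lists of the mating programme (x axis, n is the number of genes measured in both replicates), with black lines at the medians. Pheromone maturation genes have a median of −0.37 in replicate 1 and 0.06 in replicate 2, and signalling genes have medians of −0.08 and 0.02.

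Genes of pheromone maturation, which farnesylate and trim a-factor or cleave the precursor of α-factor, had medians of −0.37 in replicate 1 and 0.06 in replicate 2. Of the 9 measured in both, 4 were below 0 in both and 1 above, beside 24.6% and 26.6% of all genes. RAM1, the farnesyltransferase subunit that acts on a-factor and Ras, had ratios of −0.57, −0.79 and −0.02. STE13, a peptidase that matures α-factor, had −0.46, −0.02 and −0.71. Genes that control mating type had medians of 0.09 and 0.16. Below 0 in both replicates were 2 of 9, and 3 were above, beside the same shares of all genes. In lists this small nothing is read from these counts. ASH1, which represses mating type switching in daughter cells, had 0.69, 1.04 and 0.32. MCM1, a transcription factor that binds a-specific promoters, had a blank on the Cy5 array, −0.53 on the Cy3 array and −0.14 in replicate 2.

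The genes with ratios most like those of AGA1 were found by the smallest Euclidean distance over the 3 arrays among the 4251 genes measured on all of them that are not among the 10 mating genes. None of the 5 nearest belongs to the further mating lists. Those lists hold few of the 4251 genes, so most sets of 5 genes would hold none, and nothing is read from this. CTP1, the citrate carrier of the mitochondrial inner membrane, came first at a distance of 0.433, with log2 ratios of −0.84, −1.56 and −0.73. MGA1, a protein similar to heat shock transcription factors, had −0.91, −1.53 and −0.71. RTC3 had −0.68, −1.21 and −0.88, and SFK1, a plasma membrane protein, −0.23, −1.33 and −0.93. The reading frame YLR337W, which has no name in the RefSeq table, had −0.10, −1.89 and −0.94. All 5 had, like AGA1, a lower ratio on the Cy3 than on the Cy5 array, which follows from picking them by distance over these arrays. With 3 arrays from 2 replicates, such likeness is a description of these hybridisations.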

How the data were processed

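Total RNA (8 µg) was turned into oligo(dT)-primed cDNA and labelled indirectly with Cy3 and Cy5, per the labels' protocols. The authors deposited 1 log2 ratio per gene and array. For scanning, spot filtering and normalization, no method is given in those sources. Turned back into linear ratios, 100% of the values of each array fell on a step of 0.001 (within a log2 rounding of 6e-05), against 11.6 to 13.2% with the opposite sign. The swapped array correlates positively with its partner, so it had been turned already. The deposited medians were 0.0229, 0.0072 and 0.0468.

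Ratios were centred by the median of their array, both arrays of replicate 1 were averaged (1 value was used where the other was blank), and genes with a value in both replicates were kept, 4598 in all. The R package limma 3.58.1 (R 4.3.3) fitted the mean of each gene against 0, two-sided, by lmFit and eBayes with 1 residual and 5.15 prior degrees of freedom, followed by Benjamini-Hochberg adjustment. On simulated data the fit was checked for the mean changes it returned, and no requirement was set on its calls. The fit gives the background only. Wild type was measured only as the other channel of each array.

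Names and chromosomes came from the RefSeq table of assembly R64, which matched 5638 of 6212 identifiers by locus tag. Neighbours were taken from the order of the systematic names, and coordinates and sequences were not used here. The 10 members and all lists were chosen with earlier results of these data known. Besides the members, HAL3, VHS3 and URA3, the genes named were the 5 nearest to AGA1 and up to 4 per list. Those had the same sign on all 3 arrays and the largest absolute mean. STE6, ASG7, MCM1, FUS3, STE11, STE7 and the α-specific genes were added for their roles after their values were seen. FIG1 was also picked out after its values were seen. Alternatives changed centring, scale, the dye-swap pair, missing values, the variance prior, the fold limit and the replicates.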

Additional observations from a re-analysis of the deposited data

How the results depend on the processing

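The difference between the a-specific and general haploid medians, 0.32, stayed above 0 in all alternatives run. It was 0.36 centred per chromosome, 0.44 with the arrays scaled to one spread, 0.50 and 0.16 with the Cy5 or the Cy3 array alone for replicate 1, 0.48 with 3 arrays weighted equally and 0.39 with genes on all 3 arrays. Alternatives added after seeing the data gave 0.34 without BAR1 and 0.24 with AGA1 counted as a-specific, and leaving out a replicate gave 0.29 to 0.41. The count of mating genes at least 2-fold lower in both replicates, 1, became 0 centred per chromosome, 0 scaled, 0 with the Cy5 array alone and 0 with 3 arrays. In a single replicate, 3 of 8 were 2-fold lower in replicate 1 and 1 of 9 in replicate 2. The median of the mating genes, −0.41, ran from −0.60 to −0.04 without a replicate. The 5 of 8 genes below 0 in both became 4 with no centring, 4 centred per chromosome, 4 of 7 with the Cy5 array alone and 4 of 7 with 3 arrays. In a single replicate, 8 of 8 were below 0 in replicate 1 and 5 of 9 in replicate 2. These counts cover 1 replicate and other sets of genes, so they are not like those in both. Over all genes, the 19 at least 2-fold different in both replicates (6 lower, 13 higher) became 28 after scaling (13 lower, 15 higher), 71 at 1.5-fold (50 lower, 21 higher) and 129 to 380 in 1 replicate. limma called 4 genes after scaling, 13 with the Cy3 array alone and 16 with 3 arrays treated as independent, against 0, and 0 mating genes in each. The cause of these shifts was not tested. Of 53 values of single mating genes under alternatives that kept both replicates, 46 moved by less than the SD between replicates and 7, of AGA1, STE5 and STE2, by more, and 0 turned sign. That SD is each gene's own, 0.07 for AGA1 and STE5 and 1.36 for BAR1. A move of BAR1 from −0.60 to −0.22, centred per chromosome, thus counted as less than the SD. These counts therefore do not show which genes are the more stable. With 1 replicate left out the sign turned for BAR1 (−0.60 to 0.36) and AGA2 (−0.29 to 0.03) without replicate 1 and for FAR1 (0.09 to −0.03) without replicate 2. No further pairing was possible because each array already holds both strains and its ratio is the pair, so the fit of the ratios against 0 is already paired. Without spot intensities, the distance of any signal from background is unknown.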
